A study of Mus musculus with 4 samples.

Results

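The genes described here belong to families of the machinery that releases transmitter from synaptic vesicles, though some act at other membranes. They were chosen by symbol, as 16 synaptotagmins (Syt), 15 syntaxins (Stx), 5 genes of the Sec1/Munc18 group (Stxbp), 7 vesicle SNAREs (Vamp), Snap25 with 3 relatives and Snap91, and the complexins Cplx1, Cplx2 and Cplx4. The rest were 3 synapsins, 3 Sv2 genes with synaptophysin (Syp), 4 genes each of the Rab3, Rims and Unc13 families, and the scaffold genes bassoon (Bsn) and piccolo (Pclo). The rule found 72 of the 32531 gene rows, and 63 of them passed the filter on low counts and were tested. The libraries were RNA sequencing of input RNA, taken as RNA not pulled down with tagged ribosomes, from dissected tissue of Drd1-TRAP CP73 mice aged over 20 months. All animals carried the same transgene, an EGFP/Rpl10a fusion under the Drd1 promoter. There were 2 libraries of nucleus accumbens and 2 of dorsal striatum. Separate animals are not named in the labels. The p-values therefore reflect the spread of these libraries alone, and that spread may be technical.

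Release begins when a vesicle docks at the active zone, a protein scaffold on the presynaptic membrane. SNARE proteins of the vesicle (synaptobrevins, encoded by Vamp genes) and of the plasma membrane (syntaxin and SNAP-25) then zip together, with proteins of the Sec1/Munc18 and Munc13 families guiding their assembly. Complexin binds the assembled SNAREs, and synaptotagmin triggers fusion when calcium enters. In the striatum most cell bodies belong to inhibitory spiny projection neurons (SPNs), and the glutamatergic and dopaminergic terminals there arise from cells in other regions. Messenger RNA lies mainly in cell bodies, so tissue RNA reports chiefly on the local neurons and glia.

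The libraries held 8606099 and 8478403 counts assigned to genes in accumbens and 8991788 and 11849134 in dorsal striatum. Markers of SPNs were high in every library, with Ppp1r1b, which encodes DARPP-32, at 1081 and 949 CPM in accumbens and 1000.2 and 1259 CPM in dorsal striatum. Levels are CPM, counts relative to library size after TMM scaling. For Slc17a7, which loads glutamate into vesicles of cortical neurons, the level was 198 and 79.4 CPM in accumbens and 32.3 and 0.717 CPM in dorsal striatum. The cortical list of 10 markers summed to 473 and 311 CPM in accumbens and to 317 and 324 CPM in dorsal striatum, and none of the 10 was at 0 in all libraries. Nrgn stood at 91.3 and 91.4 CPM in accumbens and 159.5 and 255 CPM in dorsal striatum, a large part of the dorsal striatum sums. Of the 9 tested genes of the list 6 had positive and 3 negative log2 fold changes, accumbens over dorsal striatum, with a median of 1.09. At an unadjusted p under 0.05 in the edgeR test used below, 4 were higher and 1 lower, beside 10.9% and 8.27% of all tested genes. After adjustment 0 were called higher and 1, Nrgn, lower. The part of cortical RNA in the results below was not tested. Bulk RNA cannot tell fewer cells of a type apart from less RNA per cell.

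Of the vesicle release genes, 3 passed the threshold, an adjusted p of 0.05 in the edgeR quasi-likelihood test over 14493 genes. They were Syt5, Cplx1 and Pclo, all higher in accumbens, and 0 were lower. Among all tested genes 1.28% passed, 0.994% in that direction and 0.29% in the other. At an unadjusted p under 0.05 the members numbered 24 higher and 3 lower, beside 10.9% and 8.27% of all tested genes. Both accumbens libraries lay above both dorsal striatum libraries for 30 members, beside 25.6% of all tested genes. For 11 members both lay below, beside 25.6%. Estimates below are log2 fold changes, accumbens over dorsal striatum. Their median was 0.23 over the 63 tested members and 0.02 over all tested genes. Scaling by library size alone moved the median of all genes to −0.15 and that of the members to 0.06. The 72 genes took 1.92% and 1.89% of the counts assigned to genes in accumbens and 1.69% and 1.79% in dorsal striatum.

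**Figure D1:**
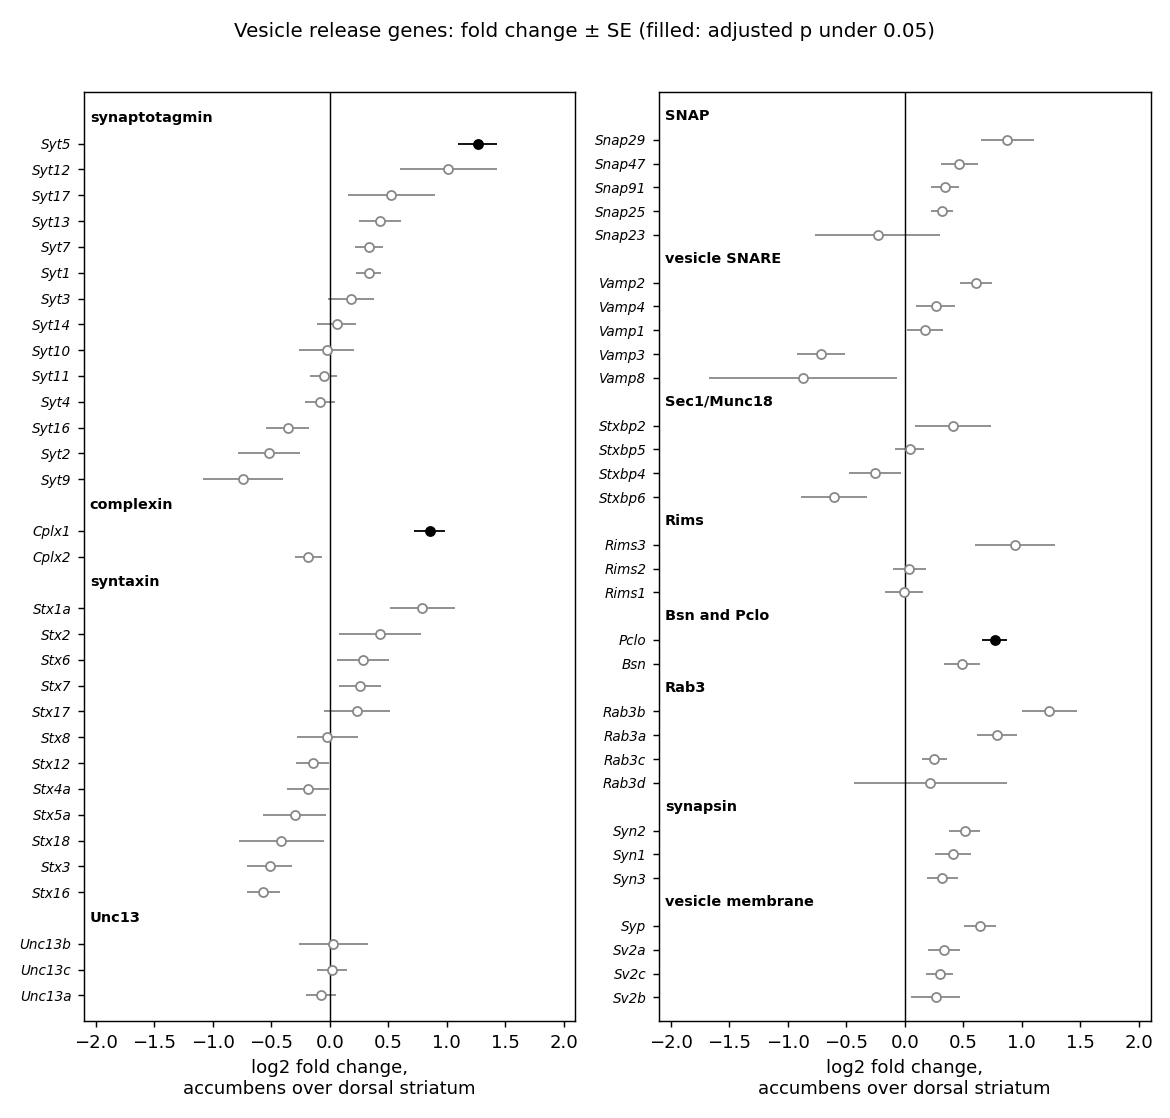
Log2 fold change of the tested vesicle release genes reported here, accumbens over dorsal striatum, grouped by family. Points are edgeR estimates, lines are ± 1 SE, and filled points mark the 3 genes with an adjusted p under 0.05. The 3 synapsins have positive estimates, and the syntaxins lie on both sides of 0.

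The count of 3 changed with the filter, the tool and scaling by library size alone. It stayed at 3 higher and 0 lower with DESeq2 size factors, upper-quartile factors, a robust fit or an offset for transcript length. Beside it, 0.759% to 1.01% of all tested genes were higher and 0.241% to 0.428% lower. With library size alone it was 3 higher and 1 lower, the lower gene being Stx16, beside 0.497% and 1.19% of all tested genes. With the 50 most abundant genes left out, Pclo among them, it was 2 higher and 0 lower of 60, beside 0.924% and 0.264%. With no low-count filter it was 10 higher and 2 lower of 70, beside 3.63% and 2.05% of all genes. With at least 10 counts in every library it was 7 higher and 1 lower of 62, beside 2.42% and 1.33%. DESeq2 gave 12 higher and 1 lower, beside 4.15% and 2.29%, and limma-voom 8 higher and 0 lower, beside 2.14% and 0.835%. It also changed with the libraries entered. Without accumbens replicate 1 it was 12 higher and 3 lower, beside 10% and 8.13% of all tested genes. Without accumbens replicate 2 it was 21 higher and 6 lower, beside 15.5% and 13.5%. With 1 accumbens library left, its spread was assumed equal to that of the dorsal striatum pair. Without dorsal striatum replicate 1 it was 2 higher and 0 lower, beside 0.528% and 0.182%. Without dorsal striatum replicate 2 it was 7 higher and 0 lower, beside 0.858% and 0.227%. Syt5 passed in each of the 15 alternative fits, and Pclo in each of the 14 that gave it a value. Cplx1 passed in 14 of 15.

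The calcium sensors differed gene by gene. Syt5, which encodes a calcium-binding synaptotagmin (chromosome 7, 4539765 to 4547541, minus strand), had 176 and 149 CPM in accumbens, against 61.7 and 73.4 CPM in dorsal striatum. Both accumbens libraries lay well above both dorsal striatum libraries. Syt5 averaged 162 ± 19.4 CPM in accumbens, against 67.5 ± 8.29 CPM in dorsal striatum (SD over 2 libraries). It was 2.40-fold higher, with a log2 fold change of 1.26 (SE 0.16, edgeR adjusted p = 0.0262). Syt1, the main sensor of fast release in forebrain neurons, had 1022 and 976 CPM in accumbens, against 785 and 800.2 CPM in dorsal striatum. Its groups were apart too, by a smaller margin than those of Syt5. The Syt1 estimate of 0.33 (SE 0.11) missed the threshold with an edgeR adjusted p of 0.146. Syt7, a sensor of slow, asynchronous release, had 255 and 266 CPM in accumbens, against 208 and 205 CPM in dorsal striatum (estimate 0.34, SE 0.12, adjusted p = 0.189).

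Some synaptotagmins had negative estimates, and none of these passed the threshold. Syt9, a fast sensor known from limbic and striatal neurons of mice, had 17.8 and 9.50 CPM in accumbens, against 22.8 and 22.9 CPM in dorsal striatum. Accumbens libraries were the lower ones, and they differed from each other 1.88-fold. Its log2 fold change was −0.74 (SE 0.34, adjusted p = 0.283). It was −1.27 without accumbens replicate 1 and −0.36 without accumbens replicate 2. Syt2, the fast sensor of many brainstem and spinal neurons, stood at 19.1 and 30.4 CPM in accumbens and 35.8 and 35.1 CPM in dorsal striatum (−0.52, SE 0.27). Leaving out accumbens replicate 1 gave −0.23 for Syt2, and leaving out replicate 2 gave −0.90. Syt16 stood at −0.36 on the same log2 scale. Syt4 and Syt11, synaptotagmins that do not trigger fast release, had estimates of −0.08 and −0.05. Over the family 14 of 16 genes were tested, and their log2 fold changes ran from −0.74 to 1.26 with a median of 0.12.

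The complexins split. Cplx1 (chromosome 5, 108518554 to 108550024, minus strand), which encodes complexin 1, had 344 and 395 CPM in accumbens, against 193 and 215 CPM in dorsal striatum. It averaged 369 ± 36.1 CPM in accumbens, against 204 ± 15.7 CPM in dorsal striatum (SD over 2 libraries). The ranges did not meet, and accumbens was 1.81-fold higher (log2 fold change 0.85, SE 0.13, edgeR adjusted p = 0.0368). Without dorsal striatum replicate 1 its log2 fold change was 0.76 and the adjusted p 0.0635. Cplx2, the gene of the closely related complexin 2, had 1111 and 1136 CPM in accumbens, against 1184 and 1370 CPM in dorsal striatum. Here the accumbens libraries were the lower ones, with a log2 fold change of −0.19 (SE 0.11, adjusted p = 0.425).

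The ratio of Cplx1 to Cplx2 counts within a library does not depend on the scaling between libraries. It was 0.309 and 0.347 in accumbens and 0.163 and 0.157 in dorsal striatum. Per base of the longest annotated coding transcript, this corresponded to 0.697 and 0.782 in accumbens and 0.367 and 0.354 in dorsal striatum. Cplx2 was the more abundant of the pair per length in every library, and by less in accumbens. Other pairs of related genes, chosen with their values known and therefore given without a test, behaved in several ways. The Syt5 to Syt1 ratio was 0.172 and 0.152 in accumbens and 0.0786 and 0.0917 in dorsal striatum. Syt11 to Syt1 was 0.481 and 0.465 in accumbens and 0.618 in both dorsal striatum libraries. The first of these ratios was higher in accumbens and the second lower. Syt7 to Syt1 was 0.250 and 0.272 in accumbens and 0.265 and 0.256 in dorsal striatum, with overlapping ranges.

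**Figure D2:**
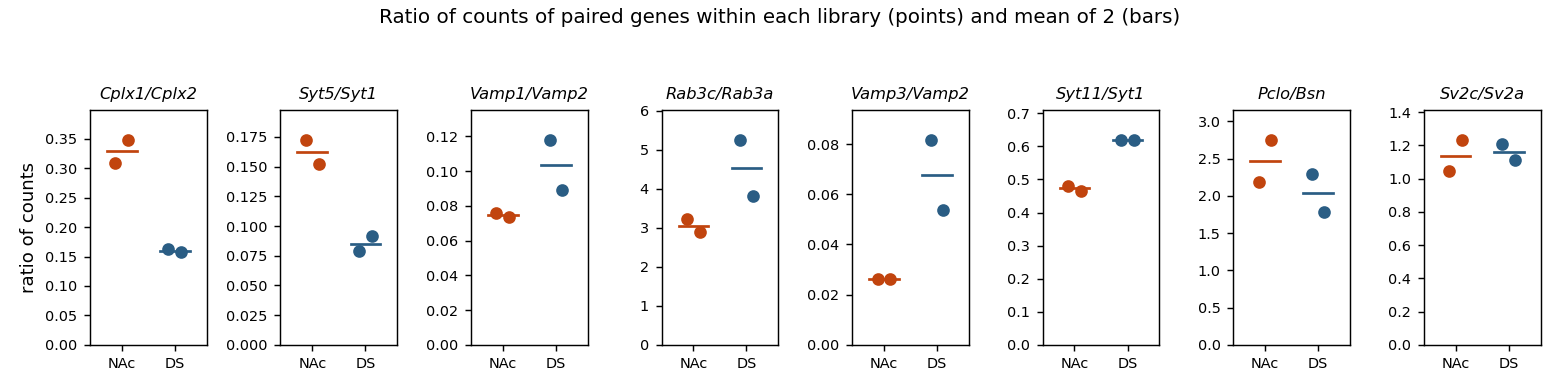
Ratio of the counts of 2 related genes within each library, for 8 pairs. Points are libraries, bars are the mean of the 2 libraries of a region, NAc is accumbens and DS is dorsal striatum. The Cplx1/Cplx2 ratio is 0.309 and 0.347 in accumbens and 0.163 and 0.157 in dorsal striatum, and the Pclo/Bsn and Sv2c/Sv2a ratios overlap between regions.

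The active zone scaffolds are among the largest proteins of the synapse. Pclo (chromosome 5, 14514918 to 14863459, plus strand), which encodes piccolo, had 1550 and 1571 CPM in accumbens, against 945 and 888 CPM in dorsal striatum. Replicates lay close together, with averages of 1561 ± 14.8 CPM in accumbens, against 917 ± 40.3 CPM in dorsal striatum (SD over 2 libraries). Pclo was 1.70-fold higher, or 0.77 on the log2 scale (SE 0.10, edgeR adjusted p = 0.0262). Bsn, which encodes its partner bassoon, had 709 and 572 CPM in accumbens, against 413 and 499.6 CPM in dorsal striatum (estimate 0.49, SE 0.15, adjusted p = 0.139). The Pclo to Bsn ratio of counts was 2.19 and 2.75 in accumbens and 2.29 and 1.78 in dorsal striatum. These ranges overlap.

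The Rab3 GTPases tether vesicles to the active zone through Rims proteins. Rab3b (chromosome 4, 108879063 to 108943324, plus strand) had the second largest log2 fold change of the set, 1.24 (SE 0.24), at 111 and 150 CPM in accumbens, against 43.8 and 66.8 CPM in dorsal striatum. All accumbens values exceeded those of dorsal striatum, and the edgeR adjusted p of 0.0532 was just outside the threshold. Rab3a had 280 and 322 CPM in accumbens, against 147 and 201 CPM in dorsal striatum (0.79, SE 0.17, adjusted p = 0.0698). Rab3c had 900.1 and 931 CPM in accumbens, against 770 and 769 CPM in dorsal striatum (0.25, SE 0.11, adjusted p = 0.248). Rab3b and Rab3a passed in 8 of 15 alternative fits each, and Rab3c in 0. The Rab3c to Rab3a ratio of counts was 3.22 and 2.90 in accumbens and 5.25 and 3.82 in dorsal striatum.

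Promoter windows are shown for the called genes with an entry in the RefSeq table (build GRCm38.p6), and for Rab3b, which came closest to the threshold. Syt5 had no entry. Each window runs from 250 bases before to 50 bases after an annotated start, 5′ to 3′ on the gene's strand. Capitals mark GGGCGG (the GC box) and TATAAA (the TATA box), each searched on both strands.
Cplx1, chr5:108549978-108550277, minus strand: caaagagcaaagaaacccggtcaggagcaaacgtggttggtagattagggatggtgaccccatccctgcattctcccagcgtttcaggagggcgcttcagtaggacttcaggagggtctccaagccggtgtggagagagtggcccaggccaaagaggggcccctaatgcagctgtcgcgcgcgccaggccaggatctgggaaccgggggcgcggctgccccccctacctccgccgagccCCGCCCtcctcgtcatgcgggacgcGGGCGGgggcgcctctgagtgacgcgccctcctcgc
Pclo, chr5:14514668-14514967, plus strand: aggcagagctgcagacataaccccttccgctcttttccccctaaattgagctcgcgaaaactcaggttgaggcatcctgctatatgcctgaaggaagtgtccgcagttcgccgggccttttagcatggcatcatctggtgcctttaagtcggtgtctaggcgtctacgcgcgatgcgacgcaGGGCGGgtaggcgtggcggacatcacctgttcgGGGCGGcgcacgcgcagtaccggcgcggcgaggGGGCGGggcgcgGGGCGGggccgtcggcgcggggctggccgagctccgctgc
Rab3b, chr4:108878820-108879119, plus strand: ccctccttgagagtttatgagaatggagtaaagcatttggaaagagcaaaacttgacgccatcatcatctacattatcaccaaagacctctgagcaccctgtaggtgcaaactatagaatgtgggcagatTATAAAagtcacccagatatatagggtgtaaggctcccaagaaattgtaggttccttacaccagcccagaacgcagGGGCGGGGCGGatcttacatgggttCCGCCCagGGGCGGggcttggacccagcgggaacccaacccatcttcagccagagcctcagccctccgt
The Cplx1 window held 2 GC boxes, the Pclo window 4, and the Rab3b window 4 with 1 TATA box. In Rab3b 2 GC boxes shared 1 base. Of all 32851 windows of this length 35.7% held a GC box and 13.6% a TATA box. Windows were found for 55 of the 72 genes, 69 windows in all, of which 65.2% held a GC box and 7.25% a TATA box. A match is a description of the letters and not of binding.

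Among the core SNAREs no gene passed the threshold. Snap25 was the most abundant gene of the set per length, with 4605 and 4685 CPM in accumbens, against 3739 and 3709 CPM in dorsal striatum. Replicates agreed closely, the ranges were apart, and the estimate was 0.32 (SE 0.09, edgeR adjusted p = 0.125). Vamp2, the synaptobrevin gene of most forebrain synapses, had 1072 and 1084 CPM in accumbens, against 620 and 790 CPM in dorsal striatum (estimate 0.61, SE 0.14, adjusted p = 0.0730). Stx1a, the gene of syntaxin 1A, had 28.5 and 21.0 CPM in accumbens, against 13.9 and 14.7 CPM in dorsal striatum. All accumbens values were higher, but the accumbens libraries differed 1.36-fold from each other, and the log2 fold change of 0.79 (SE 0.28) had an adjusted p of 0.178.

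The other SNARE genes, of vesicles and of other membranes, did not share 1 direction. Vamp3, the cellubrevin gene, which many cell types including glia express, had 28.2 and 28.3 CPM in accumbens, against 50.5 and 42.3 CPM in dorsal striatum. It was lower in both accumbens libraries, with a log2 fold change of −0.72 (SE 0.20, edgeR adjusted p = 0.122). The ratio of Vamp3 to Vamp2 counts was 0.0263 and 0.0261 in accumbens and 0.0815 and 0.0536 in dorsal striatum. That of Vamp1 to Vamp2 was 0.0761 and 0.0737 in accumbens and 0.118 and 0.0890 in dorsal striatum, again lower in both accumbens libraries. Stx16, a syntaxin of the trans-Golgi network, had 111 and 99.6 CPM in accumbens, against 154 and 159 CPM in dorsal striatum (−0.57, SE 0.14, adjusted p = 0.0883). It passed in 7 of the 15 alternative fits and was the negative member that did so most often. Stx3 stood at 34.6 and 43.4 CPM in accumbens and 56.9 and 54.4 CPM in dorsal striatum (−0.51, SE 0.19). Snap29, which acts in endosome and autophagosome fusion, had 45.3 and 38.6 CPM in accumbens, against 25.5 and 20.3 CPM in dorsal striatum. Its ranges were apart, and its log2 fold change was 0.87 (SE 0.23, adjusted p = 0.101). Vamp1 and Vamp4 had estimates of 0.17 and 0.26. Snap91, which encodes the clathrin assembly protein AP180 and is no SNARE, had 0.34, and Snap47 had 0.47. Over the 13 tested syntaxins the log2 fold changes ran from −0.57 to 0.79 with a median of −0.02.

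**Figure D3:**
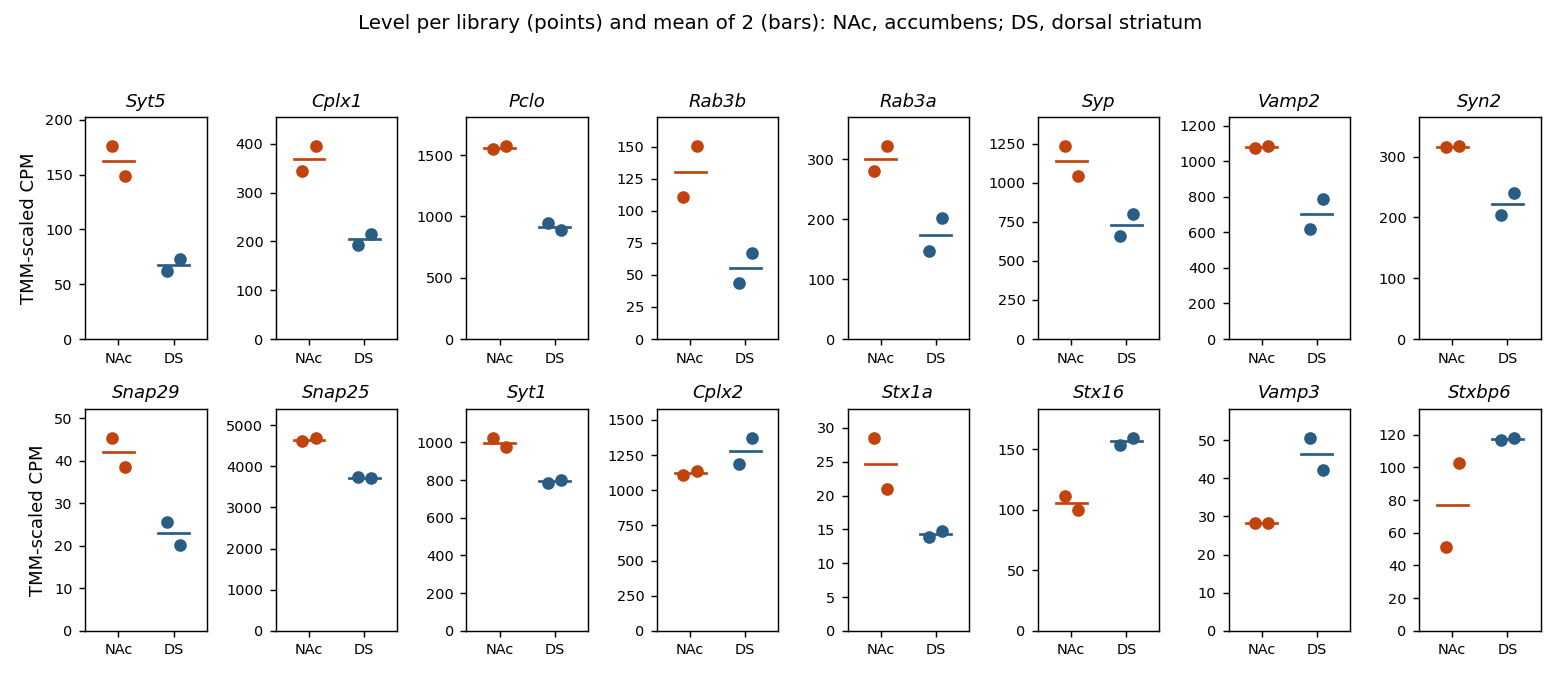
TMM-scaled CPM of 16 vesicle release genes in each library, on linear axes that start at 0. Points are libraries, bars are the mean of the 2 libraries of a region, NAc is accumbens and DS is dorsal striatum. Syt5 lies at 176 and 149 CPM in accumbens and 61.7 and 73.4 CPM in dorsal striatum, and Stxbp6 varies between the accumbens libraries.

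Several genes for proteins that prime the SNARE complex had estimates near 0. Unc13a, which encodes the priming factor Munc13-1, had 314 and 287 CPM in accumbens, against 303 and 330 CPM in dorsal striatum (estimate −0.07, SE 0.12, edgeR adjusted p = 0.806), with overlapping ranges. Unc13c stood at 0.02 (SE 0.12). Rims2, which encodes a scaffold that binds Rab3 and calcium channels, had 161 and 167 CPM in accumbens, against 171 and 149 CPM in dorsal striatum (0.04, SE 0.14, adjusted p = 0.915). Rims1 stood at −0.01 (SE 0.16), with 67.9 and 67.4 CPM in accumbens and 71.9 and 64.0 CPM in dorsal striatum. For these genes a p above the threshold does not show equal levels. The exception in the group was Rims3, the gene of a short Rims protein, with 14.7 and 24.5 CPM in accumbens, against 9.56 and 10.8 CPM in dorsal striatum. Its log2 fold change of 0.94 (SE 0.34) had an adjusted p of 0.190. It was 1.26 without accumbens replicate 1 and 0.52 without accumbens replicate 2. The accumbens libraries differed from each other more than the regions' ranges were apart.

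The tomosyn gene Stxbp5, an inhibitor of SNARE assembly, stood at 0.04 on the log2 scale. Stxbp6, the gene of amisyn, which also binds syntaxin, had 51.5 and 102.9 CPM in accumbens, against 117 and 118 CPM in dorsal striatum. Accumbens replicate 1 was far below the rest and replicate 2 near dorsal striatum, with an estimate of −0.60 (SE 0.28, edgeR adjusted p = 0.290). Without accumbens replicate 1 it was −0.19, and without accumbens replicate 2 it was −1.19. Stxbp4 stood at −0.25.

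Synapsins, which hold vesicles in the reserve pool, all had positive estimates that did not pass the threshold. Syn2 had 316 and 317 CPM in accumbens, against 203 and 240 CPM in dorsal striatum (estimate 0.51, SE 0.13, edgeR adjusted p = 0.0986). Syn1 had 381 and 442 CPM in accumbens, against 273 and 346 CPM in dorsal striatum (0.41, SE 0.15, adjusted p = 0.197). Syn3 had 205 and 181 CPM in accumbens, against 155 and 154 CPM in dorsal striatum (0.32, SE 0.14, adjusted p = 0.245). The accumbens libraries were the higher ones for each synapsin. Exons of these genes overlap exons of Timp4, Araf and Timp3 on the other strand, and the strand setting of the counting is not given in the sources used here.

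Integral proteins of the vesicle membrane also had positive estimates, and none passed the threshold. Syp, which encodes synaptophysin, a common marker of presynaptic terminals, had 1233 and 1046 CPM in accumbens, against 660 and 798 CPM in dorsal striatum. Its ranges were apart (log2 fold change 0.64, SE 0.14, edgeR adjusted p = 0.0668), and it passed in 8 of 15 alternative fits. Sv2a, which encodes the binding site of the antiepileptic drug levetiracetam, had 403 and 335 CPM in accumbens, against 276 and 309 CPM in dorsal striatum (0.34, SE 0.14). Sv2c, known for its expression in the basal ganglia, had 421 and 412 CPM in accumbens, against 333 and 344 CPM in dorsal striatum (0.30, SE 0.12). Sv2b had 472 and 288 CPM in accumbens, against 322 and 311 CPM in dorsal striatum. The last of these had overlapping ranges, with an estimate of 0.27 (SE 0.21) that was −0.14 without accumbens replicate 1. The ratio of Sv2c to Sv2a counts was 1.04 and 1.23 in accumbens and 1.21 and 1.11 in dorsal striatum, with overlapping ranges.

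Levels of different genes were compared per kilobase of the longest annotated coding transcript. Snap25 came first in every library, at 2176 and 2214 CPM per kb in accumbens and 1767 and 1753 CPM per kb in dorsal striatum. Vamp2 came second, at 486 and 491 CPM per kb in accumbens and 281 and 358 CPM per kb in dorsal striatum, and Syp came next in every library. The order of Syt1 and Rab3a differed between libraries. Syt5 ranked 12 and 13 among the members in accumbens and 26 and 21 in dorsal striatum. The isoform in use may be shorter than the one whose length was taken, which would raise the level per length.

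**Figure D4:**
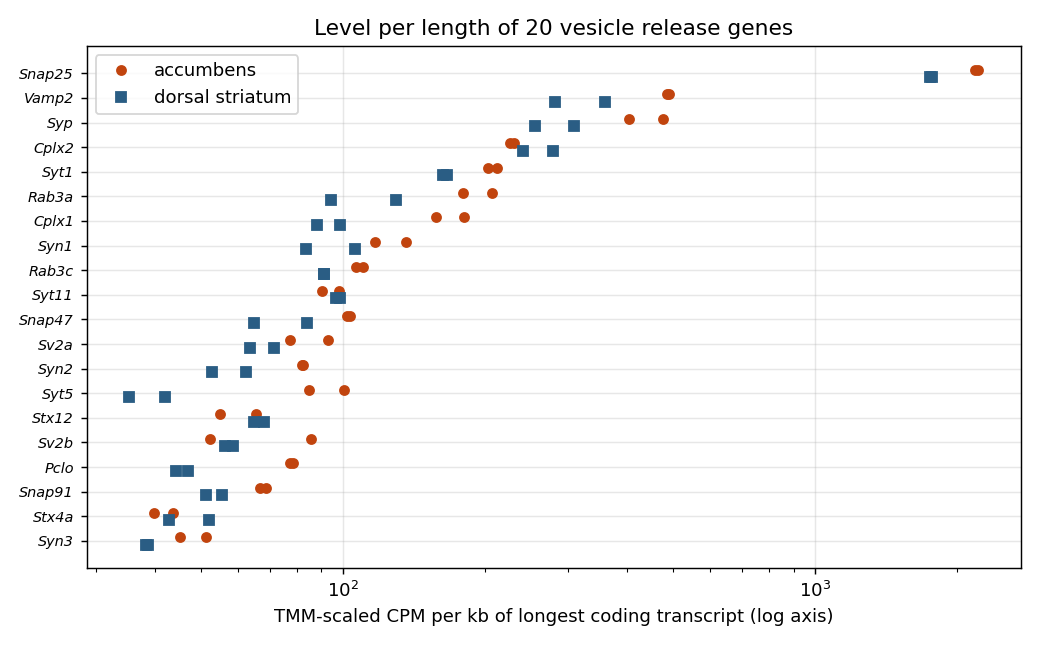
Level per length of the 20 vesicle release genes with the highest mean among those reported here, as TMM-scaled CPM per kb of the longest coding transcript on a log axis. Circles are accumbens libraries and squares are dorsal striatum libraries. Snap25 lies at 2176 and 2214 CPM per kb in accumbens and at 1767 and 1753 CPM per kb in dorsal striatum, above all other genes shown.

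The cortical marker Slc17a7 was compared with the called genes within each region. It stood at 198 CPM in accumbens replicate 1 and 79.4 CPM in replicate 2. Syt5 differed 1.18-fold between the same libraries, and Cplx1 and Pclo were slightly lower in replicate 1. Leaving out accumbens replicate 1 gave estimates of 1.13 for Syt5, 0.95 for Cplx1 and 0.78 for Pclo. Dorsal striatum replicate 1 had more Slc17a7 than replicate 2, less Syt5 and Cplx1, and slightly more Pclo. Other markers of the cortical list ran in several ways between accumbens replicates 1 and 2. Neurod2 stood at 19.6 and 9.25 CPM, Tbr1 at 30.5 and 30.1 CPM and Cux2 at 17.0 and 34.9 CPM. In dorsal striatum they stood at 5.57 and 0.159, 14.2 and 5.26, and 13.9 and 10.6 CPM. These comparisons rest on single markers and 2 libraries per region, and the part of cortical RNA in the called genes was not tested. Markers of SPNs summed to 4411 and 3784 CPM in accumbens and 5617 and 5605 CPM in dorsal striatum, with 1 of 6, Rgs9, called lower. Among GABA interneuron markers Sst was higher in accumbens, at 193 and 143 CPM against 53.5 and 58.4 CPM in dorsal striatum (edgeR adjusted p = 0.0233), and the 6 markers of that list summed to 260 and 229 CPM in accumbens and 117 and 139 CPM in dorsal striatum. Sst made up most of the accumbens sum. Of the list 3 genes had positive estimates (Sst, Npy and Th) and 3 negative ones (Pvalb, Nos1 and Calb2), with a median of 0.03. Among 5 astrocyte markers Gja1, a gap junction gene, was called higher, at 52.9 and 58.3 CPM in accumbens and 27.1 and 27.97 CPM in dorsal striatum (edgeR adjusted p = 0.0491), while the list summed to 312 and 297 CPM in accumbens and 330 and 207 CPM in dorsal striatum. The 5 oligodendrocyte markers summed to 2025 and 2362 CPM in accumbens and 1954 and 1351 CPM in dorsal striatum, with 4 positive estimates and none called. Both tested ependymal markers had negative estimates and neither was called. Of these Foxj1 had 1.49 and 2.38 CPM in accumbens and 7.57 and 6.69 CPM in dorsal striatum, and Ccdc153 had 0 CPM in both accumbens libraries and 2.73 and 3.51 CPM in dorsal striatum. The 4 microglial markers summed to 53.9 and 55.3 CPM in accumbens and 44.3 and 34.2 CPM in dorsal striatum. No tested marker of microglia, cholinergic interneurons, dopamine neurons, glutamatergic neurons of hypothalamus or thalamus, oligodendrocyte precursors or endothelium was called. The part of these cell types in the results was not tested.

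Partner genes outside the rule came from a list of 57, all of which were tested. Of these 1 was higher in accumbens and 0 lower, beside 0.994% and 0.29% of all tested genes, and 40 had a positive estimate. Unadjusted p-values under 0.05 numbered 11 higher and 2 lower, beside 10.9% and 8.27%, and DESeq2 called 5 higher and 0 lower, beside 4.15% and 2.29%. The median log2 fold change of the list was 0.09. The gene that passed was Lin7a, whose product belongs to a presynaptic scaffold with CASK and Mint proteins, at 178 and 193 CPM in accumbens, against 112 and 113 CPM in dorsal striatum. It was 1.65-fold higher, or 0.72 on the log2 scale (SE 0.13, edgeR adjusted p = 0.0496). It missed the threshold with each of the 3 other scalings and with an offset for transcript length. Cask itself stood at −0.04. Without accumbens replicate 1, 8 partner genes were higher and 2 lower, beside 10% and 8.13% of all tested genes. Without replicate 2 the counts were also 8 and 2, beside 15.5% and 13.5%.

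The 7 partners in SNARE recycling and chaperoning, such as Nsf at 765 and 809 CPM in accumbens and 649 and 727 CPM in dorsal striatum, had a median of 0.09. The 22 in priming, tethering and calcium sensing had a median of 0.02, and the 5 in the vesicle membrane 0.37. The 17 partners in vesicle retrieval had a median of 0.16, with 15 positive estimates. Dnm1, which encodes dynamin 1, stood at 612 and 617 CPM in accumbens and 421 and 486 CPM in dorsal striatum (0.44, SE 0.12, edgeR adjusted p = 0.117). The 6 genes of transmitter loading had a median of −0.23, with 2 positive and 4 negative estimates. The positive ones were those of Slc17a7, whose levels are given above (3.12, SE 1.04, edgeR adjusted p = 0.162), and Slc32a1. Slc32a1, the vesicular GABA transporter gene that SPNs use, stood at 154 and 173 CPM in accumbens and 91.4 and 130 CPM in dorsal striatum (0.55, SE 0.19, adjusted p = 0.167).

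The 9 genes that were not tested had few counts. Syt8 had 0 counts in every library, which allows up to 3 counts, for counting error only. Vamp7 was listed at 0 in every library, but GENCODE M21 places it on an unplaced scaffold and not on a chromosome. Whether the authors' reference held that scaffold is not known here, so its 0 sets no limit on its level. Rims4 had 27 and 3 counts in accumbens and 8 and 6 in dorsal striatum. Syt15 had 14 and 4 in accumbens and 8 and 7 in dorsal striatum, and Stx19 had 0 and 6 in accumbens and 6 and 8 in dorsal striatum. Vamp5 had 0 in both accumbens libraries and 9 and 2 in dorsal striatum, and Cplx4 had 0 in both and 1 and 5 in dorsal striatum. Stx11 had 0 in both accumbens libraries and 0 and 3 in dorsal striatum. Unc13d had 0 and 3 in accumbens and 2 and 0 in dorsal striatum.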

How the data were processed

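Unnormalized read counts by gene symbol were deposited by the authors for each of the 4 libraries. STAR 2.0.0e, HTSeq and the build mm10 are named in the submitters' processing notes, and the sources used here give neither annotation nor strand setting. Rows that name no gene held 44.4% to 49.7% of each file's total and were left out. Testing used TMM scaling and edgeR 4.0.16 in R 4.3.3 (filterByExpr, estimateDisp, glmQLFit, glmQLFTest, two-sided), with region as the only term. Benjamini-Hochberg adjustment ran over 14493 genes with a threshold of 0.05, and adjusted p-values are from this test unless another is named. Estimates are log2 fold changes, accumbens over dorsal striatum. Each SE is the absolute estimate over the square root of its F statistic. The 15 alternatives changed scaling, filter, tool (DESeq2 1.42.0, limma-voom with limma 3.58.1), spread estimate, pairing, abundant genes, transcript length and each library. The procedure was tested on simulated data.

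Members, gene lists and pairs were chosen with earlier results of these data known. Named with values in each library were the members past the threshold and, per family, the tested member with the largest log2 fold change in size and that with the highest mean CPM at a mean log2 CPM of at least 1, with others added after their values were seen. A few members named by it are not reported here. Gene positions and transcript lengths came from GENCODE M21 (GRCm38, the chromosomes of mm10), matched by symbol. Lengths covered 88.5% of tested genes. Marker lists covered other neurons, glia, vessels and ependyma. Exons of Rab3a, Rab3b, Snap29, Snap47, Sv2b, Syt12 and Unc13a overlap exons of another gene in the files on the other strand, so their counts are uncertain. Intervals and the floor of 3 counts cover counting error only.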

Additional observations from a re-analysis of the deposited data

How the results depend on the processing

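The count of 3 vesicle release genes past the threshold was 12 with no low-count filter, 8 with at least 10 counts in every library, 13 with DESeq2, 8 with limma-voom and 11 with a replicate block. It ranged from 2 to 27 with a library left out. The count of 1 partner gene was 0 with DESeq2 size factors, upper-quartile factors, library size alone or the length offset, 7 with no low-count filter, 5 with DESeq2, 2 with limma-voom, 6 with the replicate block and 1 to 10 with a library left out. The median log2 fold change of the members was 0.18 with upper-quartile factors, 0.058 with library size alone, 0.18 with limma-voom and 0.18 with the replicate block, and 0.18 to 0.30 with a library left out. The cause of these shifts was not tested. All genes moved too, with 186 past the threshold and 1203 with no low-count filter, 473 with the stricter one, 933 with DESeq2, 431 with limma-voom and 843 with the block (3.80% higher and 2.01% lower, beside 9 and 2 of the members). The replicate numbers name no shared animal, and same-numbered libraries deviated from their group means with a correlation of 0.033 across 14493 genes, so the block is no pairing known from the design.

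Estimates close to 0 changed sign under some settings. With upper-quartile factors Rims2 was at −0.014, Stxbp5 at −0.011 and Unc13c at −0.034. With library size alone Rims2 was at −0.13, Stxbp5 at −0.13 and Unc13c at −0.15. Unc13c was at −0.0088 with at least 10 counts in every library, and Rims1 at 0.0028 with limma-voom. With a library left out the range was −0.035 to 0.11 for Stxbp5, −0.14 to 0.58 for Sv2b, −0.024 to 0.047 for Unc13c, −0.11 to 0.0014 for Syt11, −0.093 to 0.060 for Rims1 and −0.064 to 0.13 for Rims2. Of the genes named in this paragraph Rims1 had the fewest counts, at 548 and 539 in accumbens and 684 and 803 in dorsal striatum. Elsewhere in the set, with 2 libraries per region and differences mostly under 2-fold, genes of few counts had wide errors.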

Other observations

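The accumbens libraries differed from each other more than the dorsal striatum libraries did. At a mean log2 CPM of at least 1, the median absolute log2 ratio between libraries of a region was 0.18 in accumbens and 0.11 in dorsal striatum over 62 vesicle release genes. Over 13334 tested genes it was 0.38 in accumbens and 0.19 in dorsal striatum. In accumbens 6 of the vesicle release genes were more than 1.5-fold higher in replicate 1, and they were Stx17, Stxbp2, Sv2b, Syt12, Syt9 and Unc13b. Another 5 were more than 1.5-fold higher in replicate 2, and they were Rab3d, Rims3, Snap23, Stxbp6 and Syt2. In dorsal striatum Rab3b alone differed by as much.

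Syt12, which encodes a synaptotagmin that does not bind calcium, had 32.7 and 13.5 CPM in accumbens, against 10.8 and 12.03 CPM in dorsal striatum. The estimate was 1.01 on the log2 scale (SE 0.42, edgeR adjusted p = 0.236). It was 0.23 without accumbens replicate 1 and 1.51 without accumbens replicate 2. Slc17a7 was 198 CPM in accumbens replicate 1 and 79.4 CPM in replicate 2, and its part in these values was not tested.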
